A study of Mus musculus with 6 samples.

Results

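The miR-181 family was followed in the exosomes of mouse serum by reading 5 rows of a table that lists 1982 miRNAs. The rows were chosen by name and are listed as mmu-miR-181a-5p, mmu-miR-181b-5p, mmu-miR-181c-5p, mmu-miR-181d-5p and mmu-miR-181a-1-3p, written without the species prefix from here on. All 6 animals were male C57BL/6 mice aged 3 months, and each gave 1 small RNA library. All were needled in the hindlimb and attached to the stimulator. Only mice 4, 5 and 6, labelled ACU-LFES, had the needles at acupuncture points and received current, at low frequency in a single session of 30 min (Acu/LFES). Mice 1, 2 and 3, labelled Control, formed the sham group, needled off those points and given none. The time from stimulation to blood collection of the sequenced mice is not given in the sources used here.

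A miRNA is cut from a hairpin RNA. Its 5p and 3p arms come from the opposite strands of the stem, and usually 1 arm is kept and loaded into Argonaute, where bases 2 to 8 (the seed) pair with target mRNAs. miR-181 miRNAs are best known from lymphocytes, where miR-181a tunes the strength of T cell receptor signalling during thymic selection, and they are also abundant in brain. miR-181a has been studied in differentiating muscle, and miR-181b in endothelium as a brake on NF-κB signalling. Serum exosomes are vesicles from many tissues, so a level there has no single cell of origin.

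All 10 miR-181 rows of the table had a mature sequence in RefSeq (GRCm38.p6). The 4 members of the 5p arm are shown because they share a seed, written in capitals, and no other mouse mature miRNA of that RefSeq set has it. They differ only behind the seed.
miR-181a-5p: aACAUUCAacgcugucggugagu
miR-181b-5p: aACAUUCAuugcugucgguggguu
miR-181c-5p: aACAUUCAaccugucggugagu
miR-181d-5p: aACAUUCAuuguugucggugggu
With positions counted from 1 at the 5′ end, miR-181b-5p differs from miR-181a-5p at A9U, C10U and A21G and has 1 more base at its 3′ end. miR-181d-5p differs from miR-181b-5p at C12U and is 1 base shorter. miR-181c-5p differs from miR-181a-5p by the loss of 1 base. Where the counting allowed a mismatch, reads of such near neighbours could be shared, so the sum of the 4 was tested as well.

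The 3p arms are shown because they tell the hairpins of miR-181a apart, which the 5p arm cannot.
miR-181a-1-3p: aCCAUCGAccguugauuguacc
miR-181a-2-3p: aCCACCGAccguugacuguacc
miR-181c-3p: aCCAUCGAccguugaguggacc
miR-181a-2-3p differs from miR-181a-1-3p at U5C, inside the seed, and at U16C. miR-181c-3p has the seed of miR-181a-1-3p and differs from it at U16G and U19G. In the hairpin of Mir181a-1, with both arms in capitals, the 5p arm precedes the loop.
Mir181a-1: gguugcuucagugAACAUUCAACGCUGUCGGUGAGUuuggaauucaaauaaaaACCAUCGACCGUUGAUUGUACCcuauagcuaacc

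The family is encoded by 6 hairpin genes in 3 clusters (GRCm38, with hosts from GENCODE M21). Mir181a-1 lies on chromosome 1 from 137966455 to 137966541 on the plus strand, 97 bases ahead of Mir181b-1 (137966639 to 137966718), both in an intron of the noncoding gene Gm4258, and the latter also in an exon of A430106G13Rik. Mir181a-2 lies on chromosome 2 from 38852735 to 38852810, and Mir181b-2 from 38853830 to 38853918, both on the plus strand in an intron of Nr6a1, which is transcribed from the other strand. Mir181c and Mir181d lie 85 bases apart on the minus strand of chromosome 8, from 84178873 to 84178961 and from 84178716 to 84178787, in an intron of Nanos3. miR-181a-5p and miR-181b-5p are each made by a pair of hairpins, so their counts pool the chromosome 1 and chromosome 2 clusters, whereas miR-181c-5p and miR-181d-5p come from chromosome 8 alone.

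Library totals were 391708 to 658833 counts in the sham mice and 517421 to 1504137 in the Acu/LFES mice. miR-486a-5p and miR-486b-5p, taken here as red-cell markers, are listed with identical counts. Their 2 rows together took 61.7% to 74.0% of the counts of every library except that of Acu/LFES mouse 6, where they took 29.2%. Whether the same reads were entered in both rows was not tested. If so, this share and the library totals hold each of those reads more than once. The TMM factor of mouse 6, 2.12, also stood apart from the range of 0.65 to 1.11 in the other 5 libraries. Levels below are CPM, that is, counts scaled to a common library size after each library's total was corrected by its TMM factor. They are relative to the other miRNAs of a library, and in such bulk samples more vesicles of a source and more miR-181 per vesicle cannot be told apart. Acu/LFES was set against sham with the quasi-likelihood test of edgeR over the 259 miRNAs with enough counts, all 5 members among them, and a positive log2 fold change means a higher level with Acu/LFES.

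miR-181a-5p, the most abundant member, stood 1.48-fold higher with Acu/LFES, and miR-181d-5p stood 2.02-fold higher. In both, every Acu/LFES mouse lay above every sham mouse. miR-181b-5p, made beside miR-181a-5p in the same clusters, was at the same level in both groups to within the spread between mice. In edgeR neither difference passed the threshold after adjustment over all miRNAs tested, where 0 of 259 miRNAs were called in either direction (0%). The lowest adjusted p was 0.269, and 23 miRNAs were under 0.05 before adjustment. DESeq2, run on the same 259 miRNAs as an alternative, called 5 higher, miR-181d-5p among them, and 6 lower.

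miR-181a-5p was at 1322, 970 and 1051 CPM in sham mice 1, 2 and 3, and at 1934, 1503 and 1520 CPM in Acu/LFES mice 4, 5 and 6. The groups do not overlap, with mouse 4 standing highest and the other 2 Acu/LFES mice close together. The means were 1114 ± 184 and 1653 ± 244 CPM (SD, n = 3 each). The log2 fold change was 0.57 (standard error 0.23), and edgeR gave an unadjusted p of 0.0365 and a Benjamini-Hochberg adjusted p of 0.518. The 95% interval of the fold change ran from 1.03 to 2.13. With counts of 318 to 3232 per mouse, the counting error was small beside the spread between mice.

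miR-181d-5p was at 110, 98.0 and 95.8 CPM in the sham mice and at 204, 237 and 173 CPM in the Acu/LFES mice. The sham mice were nearly level, and the lowest Acu/LFES mouse stood clear of the highest of them. The means were 101 ± 7.39 and 205 ± 31.8 CPM (SD, n = 3 each), and the log2 fold change was 1.01 (standard error 0.40). In edgeR its unadjusted p was 0.0289 and its adjusted p 0.518, with a 95% interval of 1.09 to 3.73-fold. In DESeq2, run on the same 259 miRNAs, miR-181d-5p passed with an adjusted p of 0.0483. With DESeq2 on all 954 miRNAs that had a count, an alternative chosen after seeing the data, the adjusted p was 0.894.

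miR-181b-5p, the second in level, was at 518, 362 and 591 CPM in the sham mice and at 555, 501 and 481 CPM in the Acu/LFES mice. All 3 Acu/LFES mice lay within the sham range, and sham mouse 2 was the lowest. The log2 fold change was 0.07 (standard error 0.28, adjusted p = 0.967 by edgeR), and it turned to -0.0070 with upper-quartile factors and to -0.12 without sham mouse 2. It rose to 0.67 with total counts and to 0.25 without sham mouse 3, and was positive under 11 of the 14 alternatives. Its 95% interval ran from 0.678 to 1.61-fold, so a change of the size seen in miR-181a-5p lies inside it.

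miR-181c-5p had between 24 and 187 counts per mouse. It was at 67.8, 56.0 and 122 CPM in the sham mice and at 112, 129 and 144 CPM in the Acu/LFES mice. Sham mouse 3 stood among the Acu/LFES mice, and the other 2 sham mice stood below all of them. The log2 fold change was 0.66 (standard error 0.52, adjusted p = 0.786 by edgeR), with a 95% interval of 0.707 to 3.51-fold. Without sham mouse 3 the log2 fold change was 1.07, and edgeR gave an adjusted p of 0.590. In the sham mouse with fewest reads of it, 24 counts have a 95% Poisson interval of 15.4 to 35.7, which covers counting error only.

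miR-181a-1-3p, the passenger arm of Mir181a-1, was the least counted member. Sham mice 1, 2 and 3 gave 6, 15 and 0 counts of it, and Acu/LFES mice 4, 5 and 6 gave 15, 13 and 9, which correspond to 0 to 35.0 CPM and 8.21 to 27.0 CPM. The sham mice spanned the whole range of the Acu/LFES mice. A count of 0 in sham mouse 3 allows up to 9.91 CPM by the floor of 3 counts, which is above the values of Acu/LFES mice 4 and 6, and the two-sided 95% Poisson interval drawn in the plot of levels by mouse reaches 12.2 CPM. The log2 fold change was -0.05 with a standard error of 1.18. The 95% Poisson interval of sham mouse 2 (19.6 to 57.7 CPM) lay above those of sham mouse 1 (3.17 to 18.8 CPM) and sham mouse 3, so the spread within the group went beyond counting error. Its direction turned with total counts, with upper-quartile factors and without sham mouse 2, where it was 1.51.

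The sum of the 4 members of the 5p arm was at 2017, 1486 and 1860 CPM in the sham mice and at 2806, 2370 and 2319 CPM in the Acu/LFES mice. The groups do not overlap, where 8.88% of all miRNAs tested had every Acu/LFES mouse above every sham mouse. The means were 1788 and 2498 CPM. When the sum took the place of its members in the table, edgeR gave a log2 fold change of 0.47 (standard error 0.22, unadjusted p = 0.0564, adjusted p = 0.566).

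**Figure D1:**
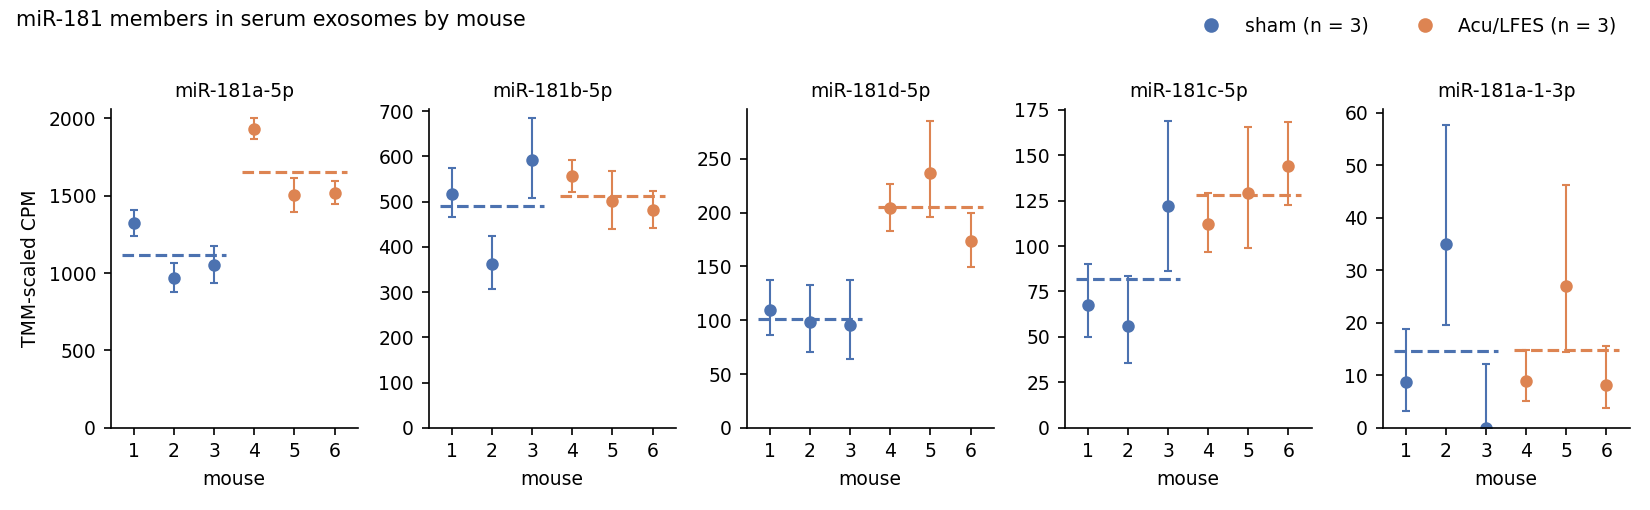
TMM-scaled CPM (linear axes from 0, each panel with its own scale) of the 5 miR-181 members in sham mice 1 to 3 (blue) and Acu/LFES mice 4 to 6 (orange), where points are mice, bars are 95% Poisson intervals of the count and dashed lines are group means. The groups are apart for miR-181a-5p (970 to 1322 against 1503 to 1934 CPM) and miR-181d-5p (95.8 to 110 against 173 to 237 CPM) and overlap for the other 3.

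Of the 5 members, 2 had an unadjusted p under 0.05 and were higher, where 5.79% of all miRNAs tested were higher at that level, and 0 were lower, against a background of 3.09%. With total counts, with upper-quartile factors and in DESeq2 on all 954 miRNAs 1 member was under 0.05 before adjustment, and with no filter on low counts 0 were. The same 2 had every Acu/LFES mouse above every sham mouse, a pattern seen in 8.88% of all miRNAs tested, and 0 had every Acu/LFES mouse below, against 8.11%. The log2 fold change was above 0 in 4 of the 5 members and in 52.9% of all miRNAs tested. The median log2 fold change of the 4 members of the 5p arm was 0.61, against 0.05 over all miRNAs tested. These 4 do not give independent readings, since clustered hairpins and near-identical sequences link them. Of the miRNAs tested, 88.0% had a lower fold change than miR-181d-5p and 77.6% a lower one than miR-181a-5p. In the plot of fold change against p, other miRNAs lie at larger changes in both directions.

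**Figure D2:**
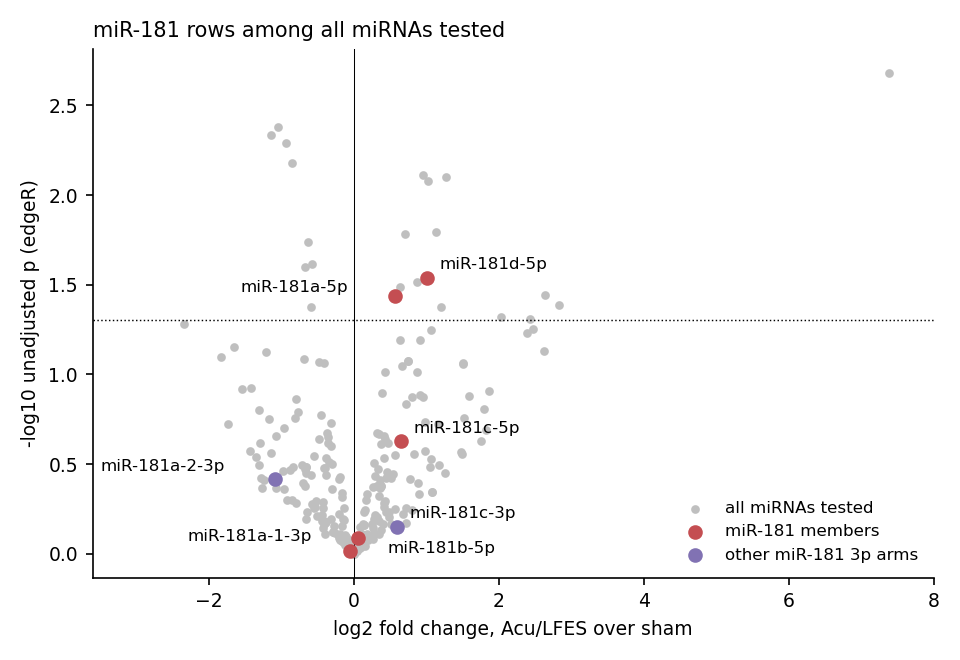
Log2 fold change of Acu/LFES over sham against the negative log10 of the unadjusted edgeR p-value for the 259 miRNAs tested, with members in red, the other 3p arms in purple and a dotted line at the 0.05 level. miR-181d-5p (1.01) and miR-181a-5p (0.57) lie above the line, while miR-181b-5p (0.07) and miR-181a-1-3p (-0.05) lie at its foot.

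The choice of scaling moved these values. On plain library totals the log2 fold changes of the 259 miRNAs had a median of 0.71, and that of miR-181a-5p was 1.16, or 0.45 above that median against 0.52 with TMM factors. miR-181a-5p was then at 631 to 1467 CPM in the sham mice and at 1145 to 3220 CPM in the Acu/LFES mice, and the groups overlapped, while those of miR-181d-5p (63.7 to 122 and 180.6 to 367 CPM) and miR-181c-5p (36.4 to 94.5 and 98.2 to 305 CPM) did not. On total counts 15.8% of all miRNAs tested had every Acu/LFES mouse higher. The log2 fold changes of miR-181a-5p, miR-181c-5p and miR-181d-5p were positive in the reported fit and under all 14 alternatives run. Without mouse 6 they were 0.65 for miR-181a-5p and 1.15 for miR-181d-5p, with unadjusted p of 0.0546 and 0.0362 by edgeR. Without mouse 4, the deepest library, miR-181a-5p was at 0.43 with an unadjusted p of 0.140, and miR-181d-5p at 1.01 with 0.0586, both by edgeR. The unadjusted edgeR p of miR-181a-5p also rose above 0.05 without sham mouse 2 (0.123) and without sham mouse 3 (0.104), and that of miR-181d-5p did so without Acu/LFES mouse 5 (0.0572).

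The 4 members of the 5p arm took 0.224%, 0.0967% and 0.144% of all counts in sham mice 1 to 3, against 0.312%, 0.181% and 0.491% in Acu/LFES mice 4 to 6. Sham mouse 1 stood above Acu/LFES mouse 5, and a two-sided exact permutation test gave p = 0.2 (where 3 mice against 3 cannot go below 0.1). Without the miR-486 reads in the total, the shares became 0.585%, 0.371% and 0.498% for sham and 0.817%, 0.681% and 0.693% for Acu/LFES. On that base the groups did not overlap (two-sided exact permutation test, p = 0.1). How many of all miRNAs tested show that pattern on this base was not computed. Their median log2 fold change with totals lacking those reads was 0.14. The widest of the 95% Wilson intervals around these, in sham mouse 3, ran from 0.459% to 0.541%.

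A ratio to a reference miRNA within a library needs no library scaling. The log2 ratio of miR-181a-5p to miR-103-3p, the serum reference of the study's qPCR, was 0.86, -0.50 and 0.96 in sham mice 1 to 3, against 0.90, 1.30 and 1.23 in Acu/LFES mice 4 to 6. Sham mouse 2 was far below the rest, and sham mouse 3 lay above Acu/LFES mouse 4. The means differed by 0.70 (two-sided exact permutation test, p = 0.2), and by 0.23 without sham mouse 2. With miR-16-5p as the reference the difference was 0.45 (p = 0.2), and with the mean of the 152 miRNAs that had at least 10 counts in every library it was 0.56 (p = 0.1, both two-sided exact permutation tests).

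**Figure D3:**
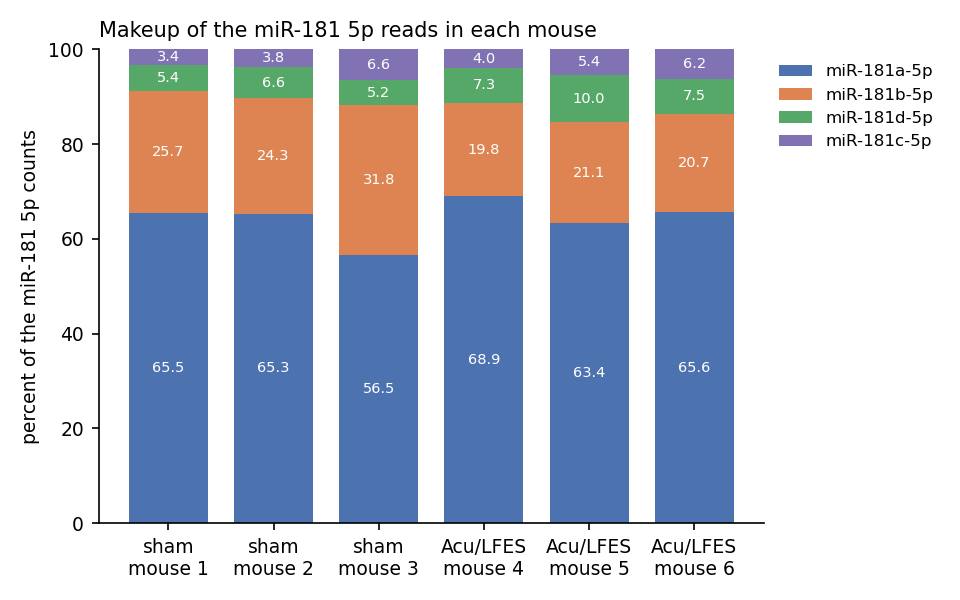
Percent of the miR-181 5p counts (vertical axis, 0 to 100) taken by each of the 4 members in each mouse, as stacked bars with the percent printed. miR-181b-5p takes 24.3% to 31.8% in the sham mice and 19.8% to 21.1% in the Acu/LFES mice, and miR-181d-5p 5.15% to 6.59% and 7.27% to 10%.

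Within the family, the shares of miR-181b-5p and miR-181d-5p did not overlap between the groups, and those of the other 2 did. The 4 shares of a mouse make up the whole of its 5p reads, so they are not separate results. They were given no test of their own, and a two-sided exact permutation test of 3 mice against 3 cannot go below p = 0.1. In every mouse miR-181a-5p was the most counted, with 56.5% to 65.5% of the 5p reads in the sham mice and 63.4% to 68.9% in the Acu/LFES mice, and the groups overlapped. miR-181b-5p came next in every mouse. Its share was 25.7%, 24.3% and 31.8% in sham mice 1 to 3, against 19.8%, 21.1% and 20.7% in Acu/LFES mice 4 to 6, all of the latter below the former. Its nearest mice had overlapping 95% Wilson intervals, at 21.2% to 27.8% in sham mouse 2 and 18.9% to 23.6% in Acu/LFES mouse 5. miR-181d-5p took 5.43%, 6.59% and 5.15% in the sham libraries, and in the Acu/LFES libraries 7.27%, 10% and 7.48%, all of them above. The 95% Wilson intervals of the nearest mice overlapped, at 4.91% to 8.79% in sham mouse 2 and 6.56% to 8.05% in Acu/LFES mouse 4. miR-181c-5p took 3.36% to 6.57% and 3.99% to 6.22%, with no separation. Since all members are 22 to 24 bases long and a read covers a whole mature miRNA, these counts were set side by side between members without a length correction. Bias of the library kit and reads shared between near-identical members, such as miR-181b-5p and miR-181d-5p, could shift these shares and the ratios below, and neither was tested. miR-181d-5p and miR-181c-5p were the only neighbours in this order whose places changed between mice, since miR-181c-5p was the higher of them in sham mouse 3 alone.

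Whether the members moved apart was tested on their log2 count ratios within a library, over 5 pairs. The log2 ratio of miR-181d-5p to miR-181b-5p was -2.23, -1.87 and -2.61 in sham mice 1 to 3, against -1.44, -1.08 and -1.47 in Acu/LFES mice 4 to 6. Every Acu/LFES mouse was higher, with a difference in means of 0.91. That of miR-181b-5p to miR-181a-5p was -1.35, -1.42 and -0.83 against -1.80, -1.58 and -1.66, a difference of -0.48 with every Acu/LFES mouse lower. For miR-181d-5p to miR-181a-5p it was -3.58, -3.29 and -3.43 against -3.24, -2.66 and -3.13, a difference of 0.43 with every Acu/LFES mouse higher, although sham mouse 2 and Acu/LFES mouse 4 nearly met. Each of these 3 had the smallest p that 3 mice against 3 allow (two-sided exact permutation test, p = 0.1), or 0.167 after Benjamini-Hochberg adjustment over the 5 pairs. They are not separate results, since the log2 ratio of miR-181d-5p to miR-181b-5p is the difference of the other 2, which fixes its direction and its lack of overlap. The ratios of miR-181c-5p and of miR-181a-1-3p to miR-181a-5p differed by 0.14 and 0.10 with overlapping groups (p = 0.9 and 1 in two-sided exact permutation tests). Without sham mouse 3, which had the highest share of miR-181b-5p, the difference between miR-181b-5p and miR-181a-5p was -0.29, and between miR-181d-5p and miR-181b-5p it was 0.72.

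**Figure D4:**
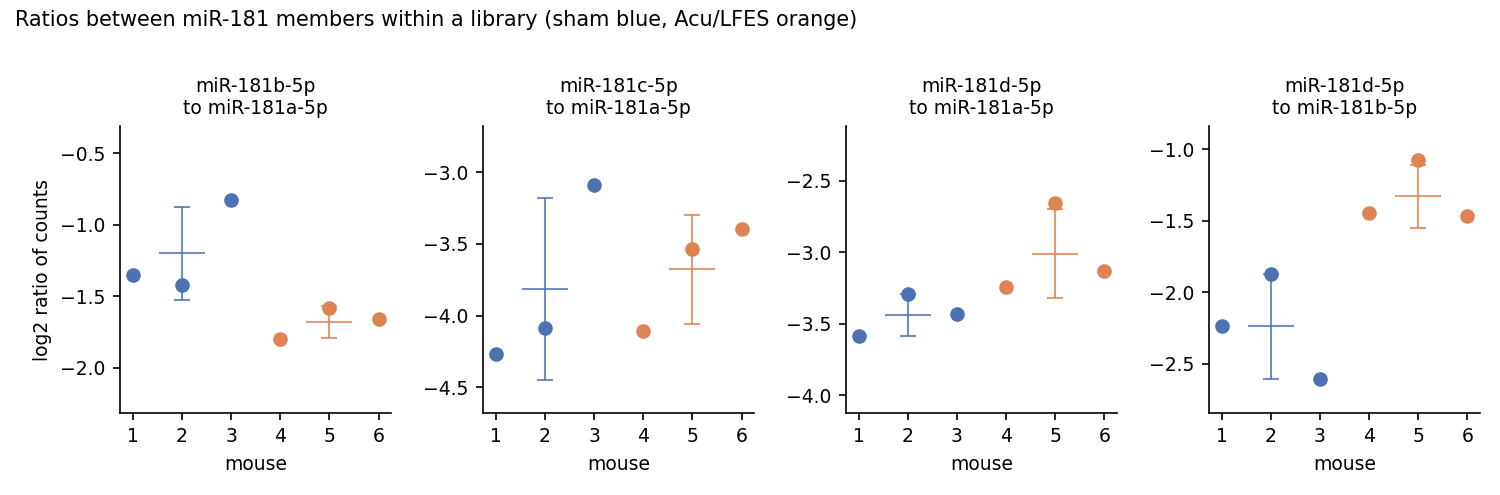
Log2 ratio of counts between miR-181 members within each library, by mouse, with sham in blue and Acu/LFES in orange and with bars for the mean and SD (n = 3 each); every panel spans the same log2 height. The groups are apart for miR-181b-5p to miR-181a-5p, miR-181d-5p to miR-181a-5p and miR-181d-5p to miR-181b-5p (mean difference 0.91), and overlap for miR-181c-5p to miR-181a-5p (0.14).

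Of the 5 other miR-181 rows, all 3p arms, miR-181b-1-3p, miR-181b-2-3p and miR-181d-3p had 0 counts in every mouse. miR-181a-2-3p was counted 45, 0 and 39 times in sham mice 1 to 3, against 63, 12 and 30 times in Acu/LFES mice 4 to 6. Sham mice 1 and 3 had the highest levels, 64.9 and 129 CPM, and sham mouse 2 had none, where a count of 0 allows up to 7.0 CPM by the floor of 3 counts. Its log2 fold change was -1.08 with a standard error of 1.19 (adjusted p = 0.799). For miR-181c-3p these numbers were 0, 0 and 13 against 34, 17 and 6, with a log2 fold change of 0.60 and a standard error of 1.54 (adjusted p = 0.929, both by edgeR). The 95% Poisson intervals of miR-181a-2-3p in the 3 sham mice did not meet (47.3 to 86.8, 0 to 8.61 and 91.6 to 176 CPM), so these mice differed by more than counting error. In every mouse the 5p arm held most of the reads of miR-181a and of miR-181c.

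Over the 6 mice Pearson's r of log2 CPM was positive in all 6 pairs of the 4 members of the 5p arm, and was highest, at 0.86, between miR-181a-5p and miR-181d-5p. It was 0.63 between miR-181c-5p and either of miR-181b-5p and miR-181d-5p, and 0.53 between miR-181a-5p and miR-181c-5p. The lowest were 0.44 between miR-181a-5p and miR-181b-5p and 0.23 between miR-181b-5p and miR-181d-5p, all given as a description of 6 libraries that share their depth and scaling across miRNAs. Among the 252 other miRNAs tested, the 5 whose log2 CPM was most like that of the summed 5p members were miR-350-5p (r = 0.97), miR-872-5p (0.96), miR-3074-5p (0.96), miR-99b-3p (0.95) and miR-31-5p (0.94), over the same 6 mice. All 5 were low, with at most 58.7 CPM in any mouse, and except for miR-872-5p all were at 0 in sham mouse 2, which was also lowest in the sum.

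For markers of cells that could add to serum RNA, the summed levels of all 6 lists overlapped between the groups. Of the 24 markers 16 were tested, and by edgeR 0 of them were under 0.05 before adjustment (smallest unadjusted p 0.0863) and 0 after it. The 6 white-cell miRNAs, of which miR-150-5p and miR-142a-3p are lymphocyte or pan-leukocyte markers, summed to 6989 to 8022 CPM in the sham mice and 5414 to 7340 CPM in the Acu/LFES mice. Their median log2 fold change was -0.39. In the other lists with a tested miRNA the median was below 0 as well, at -0.16 for red cell, -0.27 for endothelium, -0.04 for muscle and -0.67 for liver. The 6 muscle miRNAs summed to 10094 to 11262 CPM and 7483 to 12453 CPM, and the 2 endothelial ones to 2151 to 2589 and 1487 to 2171 CPM. Of the muscle miRNAs, miR-208b-3p was at 0 in every mouse, and miR-499-5p was at 0 in every sham mouse and in mouse 5, with 51 counts in mouse 4 and 20 in mouse 6. The liver miRNA miR-122-5p was at 7325 to 20828 CPM and 1693 to 15312 CPM. The 5 red-cell miRNAs summed to 556877 to 1138430 CPM in the sham mice and 138817 to 965923 CPM in the Acu/LFES mice, lowest in mouse 6. Nearly all of each sum came from the identical rows of miR-486a-5p and miR-486b-5p, both of which also enter the red-cell median. Their log2 fold change was -0.66, whereas those of miR-451a and miR-144-5p were 0.34 and 0.54. Neither miR-451a nor miR-144-5p was lowest in mouse 6. The highest sum was in sham mouse 2, whose TMM factor of 0.65 scaled its levels up. The 4 brain miRNAs were at 0 in every sham mouse and in mouse 5, with 17 counts of miR-9-5p, 6 of miR-124-3p and 26 of miR-129-5p in mouse 4 and 1 of miR-219a-5p in mouse 6. Mouse 4, the deepest library, also had the highest level of miR-181a-5p. The highest level of miR-181d-5p was in mouse 5 (237 CPM) and that of miR-181c-5p in mouse 6 (144 CPM). Whether the sources of the brain miRNAs or of miR-499-5p had a part in any of these levels was not tested. Exosome proteins were not part of the table, so the vesicle label could not be checked from it.

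**Figure D5:**
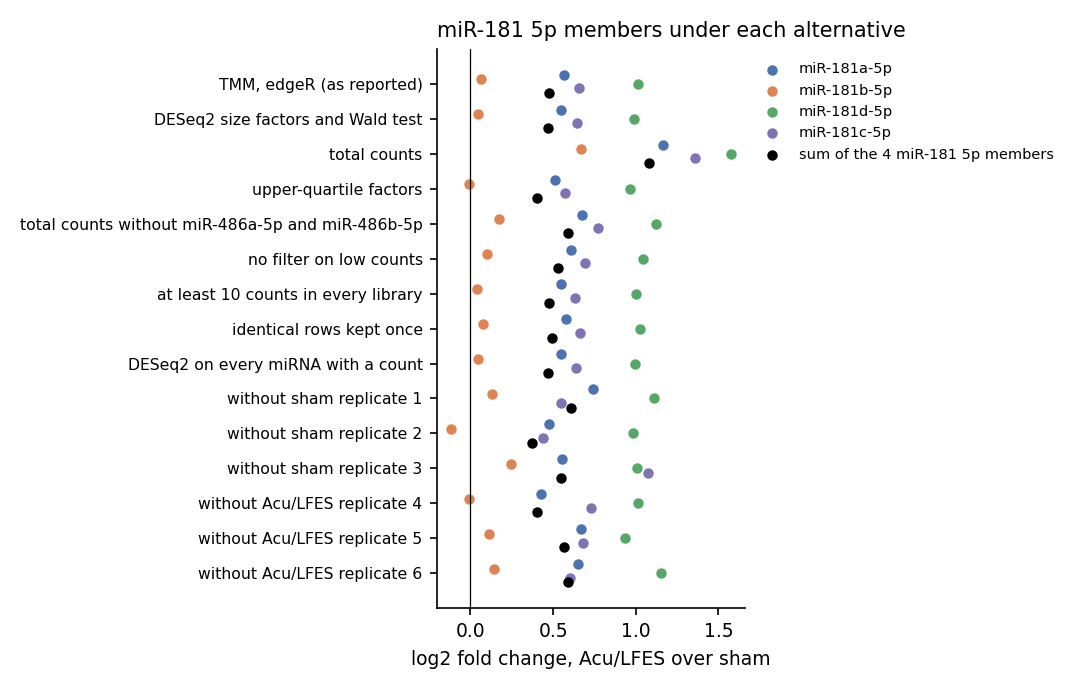
Log2 fold change of Acu/LFES over sham for the 4 members of the miR-181 5p arm and their sum, under the reported fit (top line) and 14 alternatives, one per line. miR-181d-5p lies between 0.94 and 1.57 throughout and miR-181a-5p between 0.43 and 1.16, whereas miR-181b-5p lies between -0.12 and 0.25 except with total counts (0.67).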

How the data were processed

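Small RNA from serum exosomes of 6 mice was sequenced, with 1 library per mouse in a single lane. Each value deposited by the authors is a raw count of reads for a mature miRNA, with no normalization. The submitters' processing notes name bcl2fastq 1, cutadapt 1.6 and DESeq2 1.26.0. The aligner, the miRNA annotation and the mismatches allowed are not given in the sources used here. Groups were taken from the sample titles, whose mouse numbers are not shared between groups. The members and lists were chosen with earlier results of these data known.

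From the counts, edgeR 4.0.16 in R 4.3.3 gave TMM factors, its default filter and quasi-likelihood test on the whole table, with Benjamini-Hochberg adjustment, a threshold of 0.05 and standard errors from the F statistic. The fit was also run on simulated counts, in which the libraries differed in total and in the changes put in but shared 1 mean makeup. That run does not cover the scaling of libraries as unlike in makeup as these. Ratios used a pseudocount of 0.5, and single values had two-sided exact permutation tests over mice (scipy 1.17.1). DESeq2 1.42.0 and other scalings, filters and left-out mice were alternatives. Poisson and Wilson intervals (95%) and the floor of 3 counts cover counting error only. The miRNAs named were the members, the other miR-181 arms, the 5 most alike in pattern, 2 references and the cell-type markers. No pair of libraries was identical. Figures were drawn with matplotlib 3.10.9.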

Additional observations from a re-analysis of the deposited data

How the results depend on the processing

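In DESeq2 (Wald test with its own size factors), miR-181d-5p passed at an adjusted p of 0.0483 with a log2 fold change of 0.99, and 5 miRNAs were higher and 6 lower after adjustment, against 0 in edgeR (where 23 were under 0.05 before it), and 13 were lower at an unadjusted p under 0.05. Over the 14 alternatives the adjusted p of miR-181d-5p ranged from 0.0483 to 0.894. Every other member and the sum stayed above the threshold in every alternative that gave an adjusted p. DESeq2 on the 259 miRNAs gave none for miR-181a-1-3p, which also has no value with at least 10 counts in every library or with identical rows kept once, since it did not pass the filter there.

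The log2 fold change of miR-181a-1-3p, -0.05 as reported, turned to 0.50 with total counts, 0.010 with upper-quartile factors, 0.11 with total counts without miR-486a-5p and miR-486b-5p, 0.042 with no filter and 4.1e-05 with DESeq2 on every miRNA with a count. That of miR-181b-5p turned to -0.0070 with upper-quartile factors. The log2 ratio of miR-181a-1-3p to miR-181a-5p turned to -0.23 with a pseudocount of 1.

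At an unadjusted p under 0.05, 15 of 259 miRNAs were higher (5.79%) and 8 lower (3.09%) as reported. The numbers were 23 and 0 of 259 with total counts, and 39 and 14 of 954 with no filter. They were 9 and 9 of 152 with at least 10 counts in every library. DESeq2 on every miRNA with a count gave 33 and 13 of 954. The split was 20 and 6 of 259 with total counts without miR-486a-5p and miR-486b-5p. These counts are out of unlike numbers of miRNAs tested, so they do not compare as shares. The cause of the differences was not tested. Over all miRNAs tested, log2 fold changes had a median of 0.14 with the reduced totals. With no filter the median was 0.68, and miR-181a-5p, at 0.61 there, lay under it. With DESeq2 on the same 954 miRNAs the median was -0.035, and miR-181a-5p stood 0.58 above it.

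Over the 6 fits that each omitted 1 mouse, log2 fold changes ran from 0.43 to 0.74 for miR-181a-5p, from -0.12 to 0.25 for miR-181b-5p, from 0.44 to 1.07 for miR-181c-5p, from 0.94 to 1.15 for miR-181d-5p, from -0.69 to 1.51 for miR-181a-1-3p and from 0.37 to 0.61 for the sum. The log2 ratio to miR-181a-5p went from -0.59 to -0.29 for miR-181b-5p, from -0.091 to 0.50 for miR-181c-5p, from 0.25 to 0.54 for miR-181d-5p and from -1.02 to 1.26 for miR-181a-1-3p, and that of miR-181d-5p to miR-181b-5p from 0.72 to 1.09. These 6 fits tested 271 to 311 miRNAs each, and in them 0 miRNAs had an adjusted p under 0.05. At an unadjusted p under 0.05, 13 to 41 were higher (41 without sham mouse 1) and 6 to 9 lower. miR-181b-5p turned negative without sham mouse 2 and without Acu/LFES mouse 4, and miR-181a-1-3p turned positive without sham mouse 2, Acu/LFES mouse 4 or Acu/LFES mouse 6. No paired analysis was possible because the groups share no mouse numbers. With 3 mice a group, intervals for miR-181b-5p, miR-181c-5p, the sum and the 3p arms span changes in both directions.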

Other observations

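The share of miR-181a reads that came from the 3p arms was computed after the counts were seen, and is given without a test. Taking miR-181a-1-3p and miR-181a-2-3p together, it was 5.27%, 3.48% and 10.9% in sham mice 1 to 3, against 2.36%, 3.34% and 2.29% in Acu/LFES mice 4 to 6. Every Acu/LFES mouse was lower, but sham mouse 2 (95% Wilson interval 2.12% to 5.66%) and Acu/LFES mouse 5 (2.27% to 4.89%) could not be told apart.

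The 2 hairpins of miR-181a took unlike parts of these 3p reads in different mice. miR-181a-2-3p, from chromosome 2, made up 45 of 51 reads in sham mouse 1, 0 of 15 in sham mouse 2 and 39 of 39 in sham mouse 3. In the Acu/LFES mice it made up 63 of 78, 12 of 25 and 30 of 39. The 95% Wilson intervals of sham mouse 2 (up to 20.4%) and sham mouse 3 (from 91.0%) are far apart, so mice of the same group differed here by more than counting error. Reads amplified by PCR without molecular identifiers are not independent molecules, and the part of amplification in this was not tested.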
